A study of Homo sapiens with 6 samples.

Results

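The 3 libraries of the second experiment of this study were compared with the 3 libraries of the first. The experiment number stands in the names of the deposited tables and equals the replicate number of the labels, and it divides all 6 libraries of the series into 3 and 3. All libraries came from MUTZ3, a human acute myelomonocytic leukaemia line carrying an inversion of chromosome 3, grown in alpha-MEM with fetal calf serum and medium conditioned by the bladder carcinoma line 5637. Cells were transduced with a retroviral construct, and the labels give 72 h as the time point of every library. Each experiment held 1 library of each construct group. PLASS libraries carried p50MX-3xFLAG-3xNLS-4xPLASS-Zeo, a control peptide, and PLDLS libraries carried p50MX-3xFLAG-3xNLS-4xPLDLS-Zeo, a peptide that per the labels blocks binding of EVI1, a product of MECOM, to CTBP proteins. The empty vector (EV) was p50MX-3xFLAG in experiment 1 and p50MX-Zeo in experiment 2, so in the EV pair the experiment and the vector cannot be told apart. No label says what else differed between the experiments, whether they were separate cultures or on which days they were run. The p-values of the main test rest on how far the 3 construct pairs disagree in their difference, a scatter that may be technical. In EV it includes the change of vector. With 1 library per construct in each experiment, these p-values do not measure how far repeated experiments would vary.

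MUTZ3 cells depend on growth factors in their medium. Growth factor and inflammatory signals act first on immediate early genes and on NF-kB, a family of transcription factors held in the cytoplasm by inhibitors that are themselves NF-kB targets. Genes for DNA replication are transcribed as cells enter S phase, under E2F factors, and mitotic genes later, in G2 and M phase. Separate stress programmes answer unfolded proteins in the endoplasmic reticulum, amino acid shortage and low sterol. These groups of genes, together with stem cell and lineage genes of the bone marrow, order the account that follows.

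Genes with a mean of at least 2 CPM (read counts scaled to an equal library total) over the 6 libraries were described, 12077 of the 21017 with any reads. The libraries held 5582078 to 35800826 estimated reads, and in each construct group experiment 1 was the deeper one: 20132920 against 12777337 in PLASS, 16437109 against 5582078 in PLDLS and 35800826 against 18932337 in EV. CD34, a marker of haematopoietic progenitors, stood at 600 to 901 CPM, and CSF1R, a receptor of the monocyte lineage, at 252 to 335, while the monocyte marker CD14 stood at 0.804 to 2.12. Most markers of other cell types were sparse in both experiments, but not all. Of 24 T and natural killer cell genes 7 passed the filter. Their list summed to 96.5 to 169 CPM in experiment 1 and 67.6 to 137 in experiment 2. CD3D was at 0 in 5 libraries, while CD4 stood at 36.2 to 52.9 CPM and NCR2 at 9.33 to 64.5. Of 17 fibroblast and epithelial genes 4 passed, and the list summed to 60.8 to 83.6 and 64.7 to 78.1 CPM. EPCAM was at 0 in 5 libraries, while PDGFRB stood at 50.8 to 71.0 CPM. RNA was pooled from many cells in every library, so fewer cells that express a gene and less of its RNA per cell cannot be told apart.

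Expression differed between the experiments at 2472 of the 12077 genes, 20.5% of those tested (edgeR quasi-likelihood test with construct as a block, adjusted p under 0.05). In experiment 2, 1085 genes were higher (8.98%) and 1387 were lower (11.5%), while the median log2 difference over all genes was 0.02. The differences were mostly modest: 132 genes rose and 266 fell by more than 2-fold, and 27 rose and 11 fell by more than 4-fold. The sign was the same in all 3 construct pairs for 2462 of the 2472 genes, but the test used these same pairs and favours genes whose pairs agree. The 3 libraries of one experiment did not overlap with those of the other at 4877 genes (40.4%), and at 2131 of the genes that passed the test. With construct left out of the model 1554 genes passed. With every library thinned to 5578302 reads, the depth of the shallowest, 1035 genes were higher and 999 lower, and without the EV pair 1370 and 1444. Among the genes that passed, the share that was higher was 43.9%. It was 53% with the size factors of DESeq2, 34.8% with upper-quartile scaling and 55.4% with an offset for GC content and length. Without PLASS replicates 1 and 2, 731 and 669 genes were higher and 807 and 683 lower. Without PLDLS replicates 1 and 2, 573 and 579 were higher and 891 and 756 lower. Without EV replicates 1 and 2, 1370 and 1608 were higher and 1416 and 1561 lower. Counts of list members given below are read against the 8.98% that rose and the 11.5% that fell, and for these models against these totals.

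**Figure D1:**
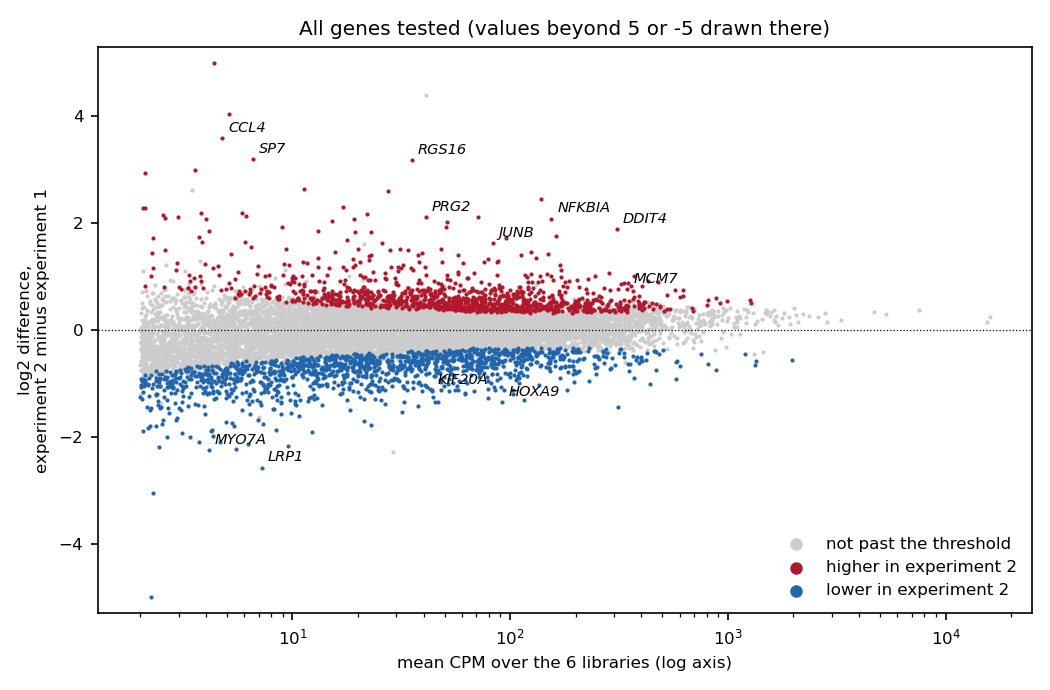
Each point is 1 of 12077 genes, with its mean CPM over the 6 libraries on a log axis and its log2 difference between experiments. Genes past the threshold are coloured, 1085 higher and 1387 lower in experiment 2, and CCL4 (3.59) and SP7 (3.20) lie highest among the labelled genes.

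The 3 construct pairs, which share no library, showed related differences. Across the 12077 genes, the log2 difference within the PLASS pair correlated with that within the PLDLS pair at 0.66, and the EV pair correlated with them at 0.62 and 0.52; genes are not independent replicates, so these are descriptions. The experiment took a median of 42.3% of the variance of a gene's log2 CPM and the 3 constructs together 25.5%. The experiment's share was the larger in 6994 genes (57.9%). Without construct in the model fewer members of most lists described below passed: 14 immediate early, 7 NF-kB, 17 replication, 9 cholesterol, 5 integrated stress response, 3 eosinophil and mast cell, 16 oxidative phosphorylation and 4 ribosomal protein genes rose, and 3 mitotic, 8 unfolded protein response and 3 stem cell genes fell.

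Among genes with the same sign in every pair, the largest increases were in genes for chemokines, signalling regulators and secreted factors. Values below are CPM scaled by TMM, in the order PLASS, PLDLS and EV. CCL4, a chemokine that attracts monocytes and T cells (GRCh38, chr17:36103827-36105614), stood at 0.966, 0.720 and 0.504 in experiment 1 and at 10.3, 9.53 and 6.60 in experiment 2, a log2 difference of 3.59 ± 0.22 (SE, adjusted p = 0.000328). Its near-identical copy CCL4L1 differed by 4.05, and reads may be split between them. SP7, a transcription factor best known from bone-forming cells, stood at 2.17, 1.14 and 0.610 and then at 18.9, 10.4 and 6.16. RGS16, which shortens signalling by G-protein-coupled receptors, went from 12.8, 6.42 and 3.48 to 87.5, 37.4 and 64.1. PDGFA, a growth factor, had a mean of 41.0 ± 10.1 (SD, n = 3) in experiment 1 and 235 ± 103 in experiment 2. Here and below, such an SD is over the 3 construct groups and includes differences between constructs. In each of these genes the lowest library of experiment 2 lay above the highest of experiment 1. Among the 15 genes with the largest increases were also RND1, XIRP1, EPX, RASGEF1B, FCGBP, AQP1, FOSB, PTGER4 and CSF1, with log2 differences of 2.15 to 2.95. Of these, 3 depended on single libraries. XIRP1 (2.60) was at 1.98 and 2.0 without PLASS replicates 1 and 2. FOSB (2.19) was at 1.17 and 1.19 without PLASS replicates 1 and 2 and at 3.16 and 3.17 without EV replicates 1 and 2, and it did not pass without PLDLS replicate 2 (adjusted p = 0.0552). FOSB also did not pass with DESeq2 (adjusted p = 0.0963) or with edgeR without construct as a block (0.0603). Its EV libraries stood at 1.46 and 1.66 CPM, and the experiments overlapped in this gene. PTGER4 (2.17) was at 2.76 without PLDLS replicate 2. Low levels occurred among these increases too. The highest libraries of RND1, RASGEF1B, FCGBP and CSF1 stood at 5.39, 5.23, 4.76 and 6.83 CPM. FCGBP overlapped between experiments and did not pass with edgeR without construct as a block (adjusted p = 0.0970).

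By the same rule, the genes with the largest decreases were mostly expressed at low levels. LRP1, a large endocytic receptor, stood at 12.2, 4.62 and 20.2 CPM in experiment 1 and at 2.57, 1.28 and 2.38 in experiment 2. MYO7A, an unconventional myosin, stood at 8.26, 4.62 and 7.38 and then at 1.53, 1.47 and 1.44. SHROOM4, a regulator of the actin cytoskeleton, was at 15.6, 15.6 and 15.7 and then at 4.34, 2.38 and 3.44. No library of experiment 2 reached the lowest of experiment 1 in these 3 genes, and their log2 differences were -2.57 ± 0.25, -2.24 ± 0.24 and -2.17 ± 0.20 (SE, adjusted p = 0.00123, 0.00170 and 0.00101). PIF1, a DNA helicase, fell by 1.91 and ACP5, an acid phosphatase of macrophages and osteoclasts, by 2.13. RCN3, CNTNAP1, SAP25, ARAP1-AS2, MDK and GPT fell by 1.92 to 2.10 on the log2 scale. MDK, a heparin-binding growth factor, was at -1.32 without EV replicate 1 and -1.31 without EV replicate 2. ARAP1-AS2 is an antisense gene, and the libraries kept no strand. Reads from a gene and its antisense partner cannot be told apart there. The readthrough gene GPR75-ASB3 was at 3.81, 3.90 and 5.76 CPM in experiment 1 and at 0 in all of experiment 2. Its estimate was at least 7.09-fold lower in the pair with the smallest bound (floor of 3 counts per library). Reads may be split between GPR75-ASB3 and the genes it spans. ANKRD20A1, TBC1D3I and AGAP5 also fell, but they belong to families of near-identical copies between which reads may be split, and they moved when single libraries were left out. ANKRD20A1 (-3.06) was at -2.39 without PLASS replicate 2 and -9.20 without EV replicate 2, TBC1D3I (-2.23) at -1.44 and -1.43 without EV replicates 1 and 2, and AGAP5 (-2.19) at -1.32 without PLASS replicate 2 and -3.25 and -3.23 without PLDLS replicates 1 and 2. AGAP5 did not pass after thinning to equal depth (adjusted p = 0.0987 by edgeR), nor TBC1D3I with DESeq2 (0.0533).

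Immediate early genes, the transcription factors and feedback regulators induced within minutes of a signal, mostly rose in experiment 2. Of 31 tested members 22 rose, 1 fell and 8 did not pass, and their median log2 difference was 0.89 against 0.02 over all genes. JUNB, a subunit of the AP-1 transcription factor, stood at 44.4, 41.9 and 34.7 CPM in experiment 1 and at 161, 105 and 112 in experiment 2 (log2 difference 1.63 ± 0.13, SE, adjusted p = 0.000768 by edgeR). EGR3, a zinc finger transcription factor, went from 9.90, 13.4 and 6.55 to 42.4, 43.8 and 21.5. BTG2, an antiproliferative gene, had means of 108 ± 19.3 and 233 ± 12.3 (SD, n = 3). IER3, a stress-responsive regulator of survival, rose by 1.86 ± 0.22, and the transcription factor ATF3, named after its values were seen, by 2.09 ± 0.33. All libraries of experiment 2 were above those of experiment 1 in these 5 genes. The exception was DUSP6, a phosphatase that switches off ERK, at 326, 729 and 297 in experiment 1 and 210, 653 and 172 in experiment 2; its fall of 0.53 did not pass without either PLASS library (adjusted p = 0.0906 and 0.136). Without PLASS replicate 1 or 2, 15 and 13 members of the list rose.

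**Figure D2:**
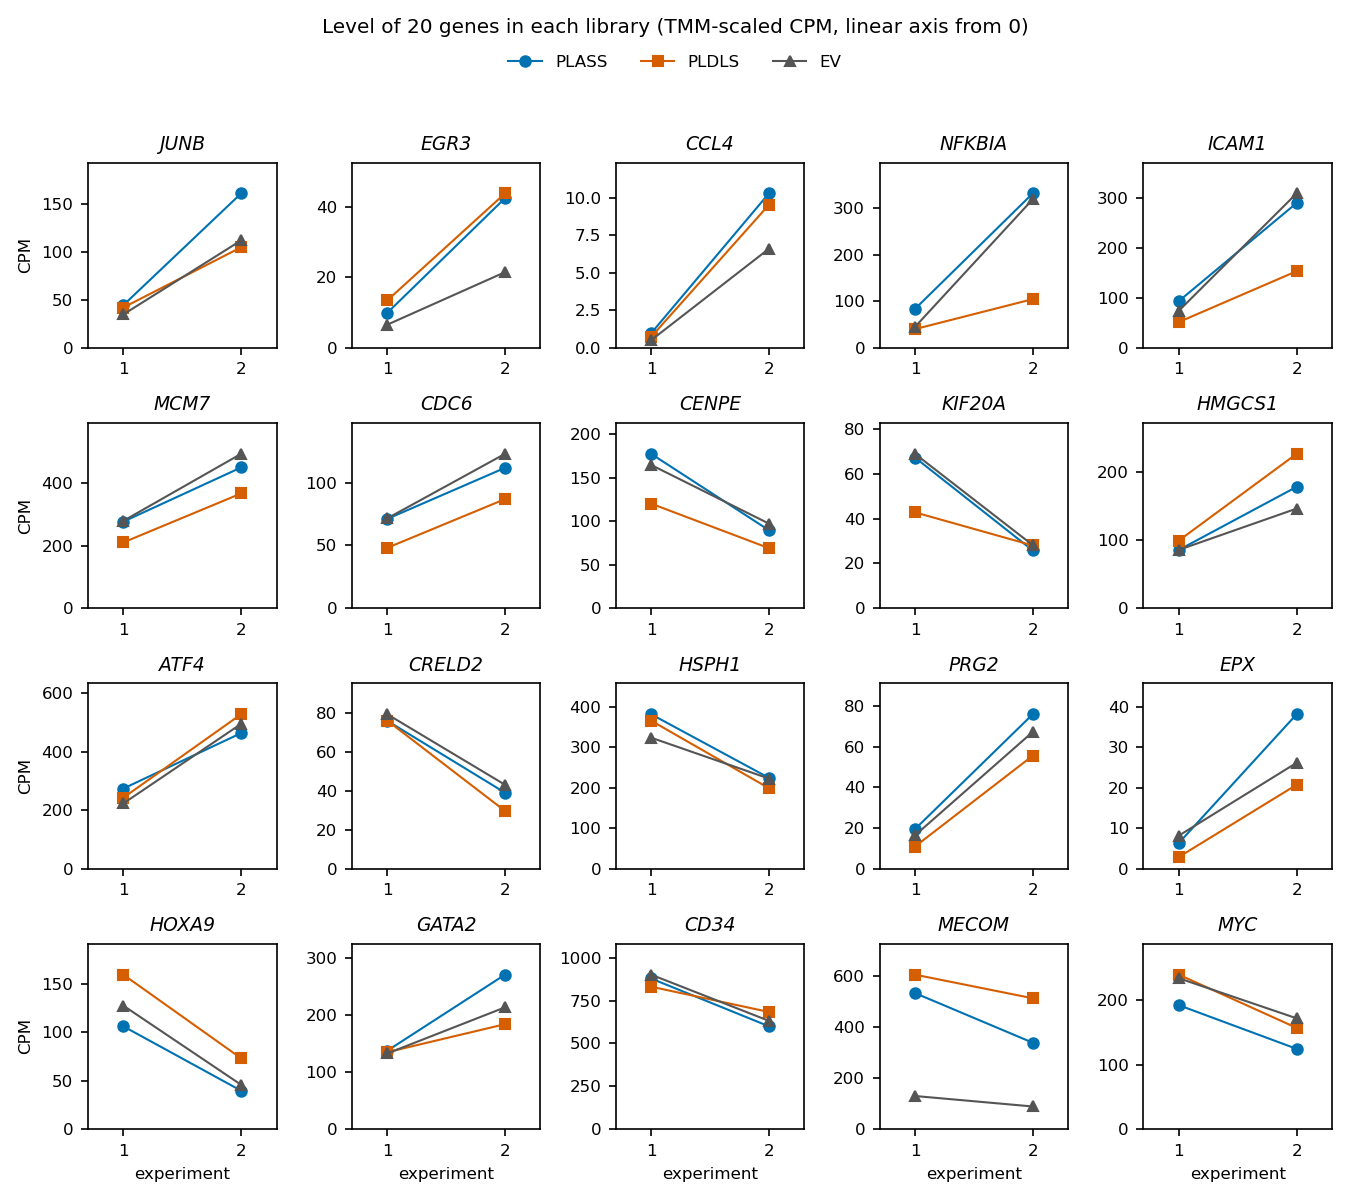
Each panel shows 1 gene, with CPM on a linear axis from 0, and each line joins the experiment 1 library of a construct to its experiment 2 library. Lines rise in JUNB, CCL4, MCM7, HMGCS1 and PRG2 and fall in CENPE, CRELD2, HOXA9 and CD34 in all 3 constructs.

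Of 30 tested targets of NF-kB and inflammatory genes 14 rose in experiment 2, none fell and 16 did not pass, with a median log2 difference of 0.64. ICAM1, an adhesion molecule for leukocytes, stood at 93.4, 51.5 and 74.0 CPM in experiment 1 and at 289, 153 and 309 in experiment 2 (1.76 ± 0.12, SE, adjusted p = 0.000676 by edgeR). CD83, a surface protein of activated antigen-presenting cells, went from 37.1, 17.9 and 23.8 to 134, 59.7 and 156. NFKBIA, the inhibitor that retains NF-kB in the cytoplasm, went from 83.6, 40.3 and 44.9 to 332, 105 and 320. The groups did not overlap in these genes, and in each the PLDLS library was the lowest of both experiments. The subunit gene NFKB1 had a log2 difference of 0.28 ± 0.16 that did not pass (adjusted p = 0.228). The median of the list was 0.48 in the PLASS pair, 0.16 in the PLDLS pair and 1.15 in the EV pair; with 1 library per experiment in each pair, that difference was not tested. Without the EV pair the median was 0.37 and 12 members rose.

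The promoter of NFKBIA is shown because it holds a kappaB site, the sequence bound by NF-kB. The 250 bases before its start are given 5′ to 3′ from RefSeq (GRCh38.p14, chr14:35404750-35404999, minus strand), with the match in capitals.
NFKBIA: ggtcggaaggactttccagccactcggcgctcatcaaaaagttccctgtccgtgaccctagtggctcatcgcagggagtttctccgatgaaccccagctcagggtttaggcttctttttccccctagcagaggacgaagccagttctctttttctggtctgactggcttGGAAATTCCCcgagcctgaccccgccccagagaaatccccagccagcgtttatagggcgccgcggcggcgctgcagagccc
A kappaB site was found on either strand in 9 of the 24 list members with a promoter in the table (37.5%), and in 617 of 9685 tested genes (6.37%), in windows from 250 bases before to 50 after the start. Among the 11 members that rose and had a promoter, 5 held a kappaB site. Of the immediate early genes 2 of 22 had a cyclic AMP response element (TGACGTCA), against 3.23% of tested genes. A CArG box, bound by serum response factor, was in 1 of 22, against 1.00%. Among the 16 that rose and had a promoter, 2 held the first element and 0 the second. The lists were made of genes known for such control. Their shares of sites over all genes, here and below, were set by that choice and do not bear on the experiments.

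DNA replication and mitotic genes differed in opposite directions. Of 48 tested replication genes 28 rose in experiment 2, none fell and 20 did not pass, with a median log2 difference of 0.50. MCM7, a subunit of the replicative helicase, stood at 276, 210 and 279 CPM in experiment 1 and at 449, 366 and 493 in experiment 2 (0.78 ± 0.10, SE, adjusted p = 0.00330 by edgeR). CDC6, which loads that helicase on origins, went from 71.1, 48.1 and 71.5 to 112, 86.9 and 123. MCM6 rose by 0.77 ± 0.11, and E2F1, a transcription factor of S-phase genes, from a mean of 35.3 ± 6.37 to 62.3 ± 3.89 (SD, n = 3). Cyclin E1 (CCNE1) rose by 0.75 and PCNA, the sliding clamp of DNA polymerases, by 0.55, both named after their values were seen. The libraries of the experiments did not overlap in any of these genes. Leaving out PLDLS replicate 1 or 2 lowered the count to 15, while the total of all genes that rose went from 1085 to 573 and 579.

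Of 33 tested genes of G2 and mitosis, none rose, 14 fell and 19 did not pass, with a median of -0.39. CENPE, a kinetochore motor protein, stood at 178, 120 and 165 CPM and then at 89.7, 69.1 and 97.3 (-0.85 ± 0.10, SE, adjusted p = 0.00261 by edgeR). KIF20A, a kinesin needed for cytokinesis, went from 67.3, 42.8 and 69.0 to 25.8, 28.0 and 28.2. AURKA, a kinase of the spindle poles, fell by 0.81 ± 0.14 and ASPM, a spindle pole protein, by 0.70 ± 0.12. None of the libraries of experiment 2 reached those of experiment 1 in these 4 genes. The PLDLS library was the lowest of experiment 1 in all of them, and of experiment 2 in all but KIF20A. The list's median was -0.56 in the PLASS pair, -0.09 in the PLDLS pair and -0.42 in the EV pair. Only 6 and 5 members fell without PLASS replicates 1 and 2, and 9 after thinning. Without PLASS replicate 2, TOP2A, a DNA topoisomerase at 825, 513 and 755 and then 507, 369 and 500, did not pass (adjusted p = 0.0812), nor did the mitotic kinase PLK1 without a PLASS library (0.0571 and 0.0854), both named after their values were seen. The counts of the 2 lists describe RNA levels in bulk, and the share of cells in each phase was not measured.

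The promoters of MCM7 and ASPM show the elements on which these groups of genes are known to depend. Both are on the minus strand (MCM7 at chr7:100101398-100101647, ASPM at chr1:197146670-197146919, GRCh38.p14) and are printed 5′ to 3′ up to the base before the start. Capitals mark E2F sites in MCM7, and in ASPM CCAAT boxes and the cell cycle homology region (CHR), in either orientation.
MCM7: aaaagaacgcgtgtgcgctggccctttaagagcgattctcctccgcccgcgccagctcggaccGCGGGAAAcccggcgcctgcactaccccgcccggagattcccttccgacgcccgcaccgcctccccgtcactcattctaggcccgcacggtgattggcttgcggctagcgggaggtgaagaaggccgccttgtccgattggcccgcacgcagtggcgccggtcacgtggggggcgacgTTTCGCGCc
ASPM: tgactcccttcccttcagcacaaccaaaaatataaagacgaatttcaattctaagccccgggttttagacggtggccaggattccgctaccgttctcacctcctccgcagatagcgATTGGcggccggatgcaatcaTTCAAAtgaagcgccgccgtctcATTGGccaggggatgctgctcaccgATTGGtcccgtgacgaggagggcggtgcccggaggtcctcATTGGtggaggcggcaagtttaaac
An E2F site (TTTCCCGC, TTTCGCGC, TTTGCCGC or TTTGGCGC) was present in 20 of the 39 replication genes with a promoter in the table (51.3%) and in 5.52% of tested genes. Among the 24 replication genes that rose and had a promoter, 11 held an E2F site. A CHR (TTTGAA) was present in 18 of 28 mitotic genes (64.3%) against 9.92%, and a CCAAT box in 23 of 28 (82.1%) against 37.2%. Among the 11 mitotic genes that fell and had a promoter, 7 held a CHR and 9 a CCAAT box. A match is a description of the sequence and does not show that a factor was bound. Genes known to depend on an element hold it often in any data, so these shares say nothing about the experiments.

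Of 20 tested genes of the unfolded protein response, among them chaperones of the endoplasmic reticulum, 11 fell in experiment 2, 2 rose and 7 did not pass, with a median log2 difference of -0.44. CRELD2, a secreted stress-induced protein of this compartment, stood at 76.1, 76.2 and 79.5 CPM in experiment 1 and at 39.1, 29.7 and 43.2 in experiment 2 (-1.05 ± 0.13, SE, adjusted p = 0.00262 by edgeR). HYOU1, a large chaperone, went from 590, 562 and 605 to 406, 269 and 384. PDIA4, which forms disulphide bonds, fell by 0.58 ± 0.12, and SEL1L, part of the degradation machinery, by 0.47 ± 0.10. In all 4 genes the PLDLS library was the lowest of experiment 2, and in HYOU1, PDIA4 and SEL1L also of experiment 1. The experiments did not overlap in these genes. PDIA4 did not pass without PLDLS replicate 2 (adjusted p = 0.0702), nor SEL1L without either library of PLASS or PLDLS (0.0640 to 0.110). The 2 that rose were XBP1, a transcription factor of this response (0.59), and HERPUD1 (0.50), both lost without a PLASS or PLDLS library (0.0612 to 0.166). HSPA5, the main chaperone of the compartment, had a log2 difference of -0.44 ± 0.14 that did not pass (adjusted p = 0.0591), though it passed in 8 of 18 alternatives (0.0160 to 0.0476), among them DESeq2, limma-voom and the models without PLASS replicate 1 or EV replicate 2. The count that fell was 7 and 5 without PLASS replicates 1 and 2, and 3 and 2 without PLDLS replicates 1 and 2.

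CRELD2, the list's member with the smallest p, is shown because it holds the endoplasmic reticulum stress element, made of CCAAT, any 9 bases and CCACG. Its 250 bases before the start lie on the plus strand at chr22:49918384-49918633 (GRCh38.p14), with the element, which runs on the opposite strand, in capitals.
CRELD2: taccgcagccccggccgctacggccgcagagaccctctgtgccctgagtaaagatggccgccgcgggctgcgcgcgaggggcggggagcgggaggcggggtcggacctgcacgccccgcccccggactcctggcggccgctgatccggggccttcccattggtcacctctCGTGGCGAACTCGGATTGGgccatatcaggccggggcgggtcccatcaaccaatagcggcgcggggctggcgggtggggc
The element was found in 6 of the 20 list members (30%), in 4 of the 11 that fell, and in 14 of 9685 tested genes (0.145%). Membership of the list was set by known roles in this response, so that share does not bear on the experiments.

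Genes of the integrated stress response, which amino acid shortage and other stresses induce through ATF4, moved the other way. Of 27 tested members 13 rose and 2 fell, with a median of 0.48. ATF4 itself stood at 274, 243 and 223 CPM in experiment 1 and at 464, 528 and 496 in experiment 2 (1.01 ± 0.12, SE, adjusted p = 0.00244 by edgeR). MTHFD2, a mitochondrial enzyme of one-carbon metabolism, went from 323, 348 and 229 to 620, 550 and 515. PPP1R15A, which ends the response by recruiting a phosphatase, rose by 1.07 ± 0.16, although EV of experiment 2 (56.7) lay within experiment 1 (30.9 to 61.8). WARS1, the tryptophanyl-tRNA synthetase, fell from 344, 264 and 339 to 198, 159 and 175, and AARS1 was the other that fell. The median was 0.66 in the PLASS pair, 0.43 in the PLDLS pair and 0.03 in the EV pair. SESN2 and STC2 passed the test without a rise in EV, at 85.5, 75.0 and 78.7 and then 219, 193 and 76.5 for SESN2. Without PLDLS replicate 1 or 2 the list had 8 members that rose. An amino acid response element (TGATGNAA) was found in 6 of 24 promoters of the list (25.0%) and in 1.51% of tested genes. Of the 12 members that rose and had a promoter, 2 held it (16.7%).

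Among heat shock genes 5 of 19 fell and 1 rose, beside 11.5% and 8.98% of all tested genes, around a median of 0.05. HSPA1B, an inducible cytosolic chaperone, stood at 109, 94.2 and 108 CPM in experiment 1 and at 58.2, 56.1 and 48.1 in experiment 2 (-0.95 ± 0.12, SE, adjusted p = 0.00270 by edgeR), and reads may be shared with its near-identical copy HSPA1A. HSPH1, a nucleotide exchange factor of HSP70, fell by 0.73 ± 0.11. DNAJB4 and CHORDC1 fell by 0.82 and 0.50, and did not pass without a PLASS library (adjusted p = 0.0519 to 0.118). CHORDC1 was also lost without a PLDLS library (0.151 and 0.181). HSPA1A was the 5th gene that fell, 3 fell without a PLASS library, and HSPE1, a mitochondrial chaperonin, rose by 0.73.

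**Figure D3:**
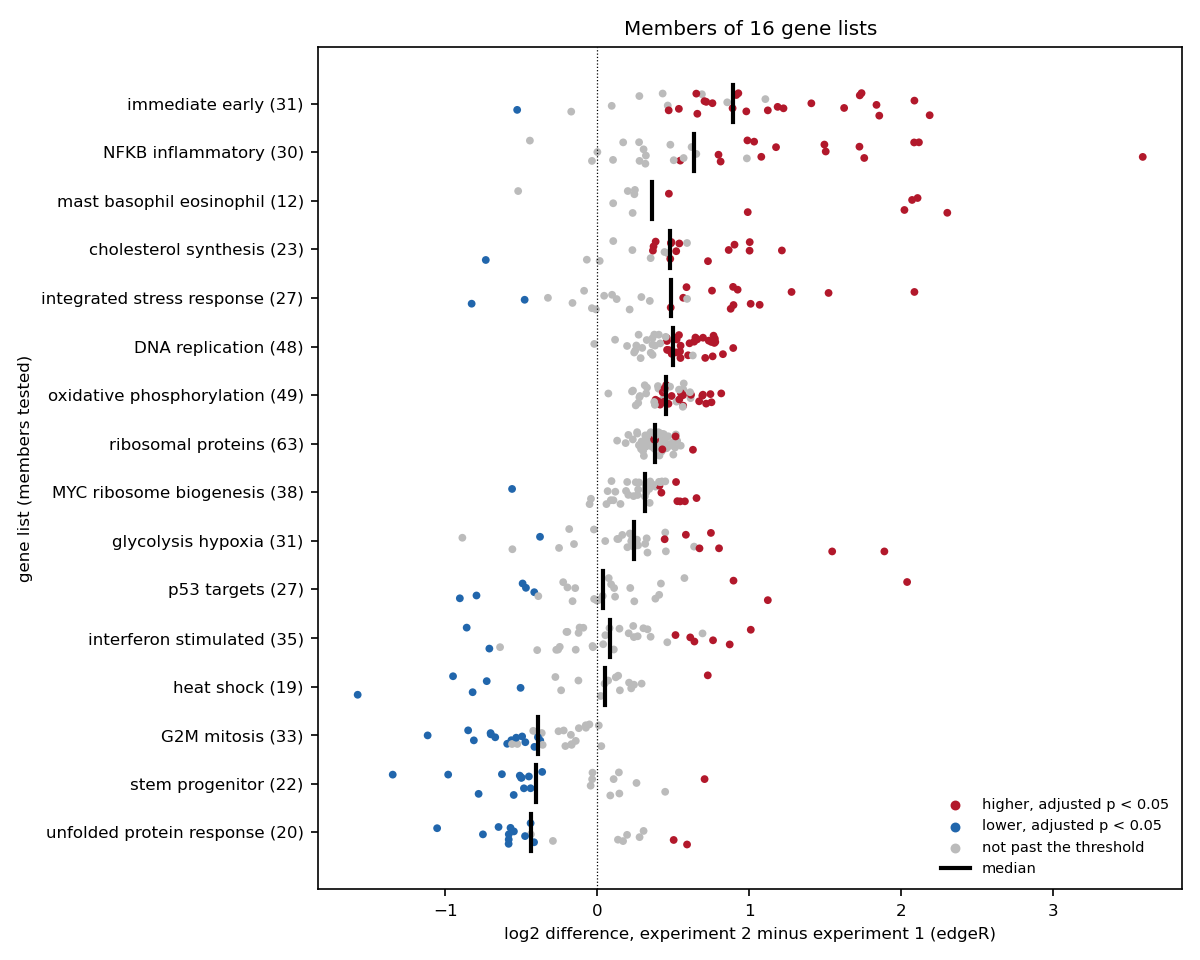
Each point is a tested member of a gene list, placed by its log2 difference between experiments, with the list's median as a bar. Points of DNA replication lie to the right, with a median of 0.50, and those of mitosis, stem cell and unfolded protein response genes to the left, at -0.39, -0.40 and -0.44.

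Of 23 tested cholesterol genes 14 rose in experiment 2, 1 fell and 8 did not pass, with a median log2 difference of 0.48. HMGCS1, the enzyme that makes HMG-CoA, stood at 85.9, 99.6 and 86.0 CPM in experiment 1 and at 179, 227 and 147 in experiment 2 (1.00 ± 0.11, SE, adjusted p = 0.00214 by edgeR). MSMO1, a sterol methyl oxidase, rose by 1.22 ± 0.15, and INSIG1, the sterol-regulated retention protein, by 0.87 ± 0.12. In both experiments the PLDLS library was the highest in these 3 genes. INSIG1 overlapped between experiments through EV (243 against up to 305), and HMGCS1 and MSMO1 did not. TM7SF2, a sterol reductase, was the member that fell (-0.73), and it was lost without any library of PLASS or PLDLS (adjusted p = 0.0806 to 0.101). Without any 1 of those libraries 8 members rose. TM7SF2 also did not pass with DESeq2 (adjusted p = 0.0949) or with edgeR after thinning to equal depth (0.111). A sterol regulatory element (TCACNCCAC) was found in 1 of 17 promoters of the list and in 1.01% of tested genes. Of the 9 members that rose and had a promoter, 0 held it. Of 13 fatty acid genes 4 rose: TMEM97, a regulator of cholesterol traffic (0.73 ± 0.14), the desaturases SCD (0.74 ± 0.14) and FADS1 (0.43 ± 0.10), and the carrier FABP5 (0.90 ± 0.23). Without either EV library 7 of these genes rose. FADS1 was lost without any PLASS or PLDLS library (0.0543 to 0.195) and FABP5 without the EV pair (0.0517) or after thinning (0.0618). Of 6 genes of sterol efflux under LXR none passed (edgeR); ABCA1, an exporter of cholesterol, was at 0.38 ± 0.18 (adjusted p = 0.160), and at 0.66 and 0.67 without EV replicates 1 and 2, where it passed (0.0132 and 0.00458).

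Of 22 tested stem and progenitor genes 12 fell in experiment 2, GATA2 rose and 9 did not pass, with a median log2 difference of -0.40. HOXA9, a homeobox factor of leukaemic self-renewal (chr7:27162438-27165537), stood at 106, 160 and 128 CPM in experiment 1 and at 39.6, 73.1 and 45.8 in experiment 2 (-1.35 ± 0.11, SE, adjusted p = 0.000772 by edgeR). HLF, a transcription factor of haematopoietic stem cells, went from 115, 46.2 and 167 to 52.3, 28.0 and 81.6. MEIS1, the cofactor of HOXA9, fell by 0.78 ± 0.16, and not past the threshold without a PLDLS library (0.0503 and 0.0608). HOXA9 and MEIS1 did not overlap between experiments, while HLF did, with 67.3% of its variance between constructs and 31.6% between experiments. CD34, ERG and HOXA10 fell by 0.45, 0.55 and 0.63; these were named after their values were seen, and CD34 and ERG were lost without any library of PLASS or PLDLS (0.0544 to 0.223) and HOXA10 without PLASS replicate 2 (0.0691). MECOM, the EVI1 gene (chr3:169083507-169663712), stood at 533, 605 and 130 CPM and then at 339, 513 and 88.6. Its fall of 0.48 ± 0.12 (adjusted p = 0.0260) was smaller than the gap between EV and the peptide libraries of the same experiment, and did not pass without PLASS replicate 1 or 2 (0.168 and 0.219). GATA2, the stem cell factor whose enhancer the inversion moves next to MECOM, rose from 138, 135 and 133 to 271, 184 and 214 (0.71 ± 0.12, adjusted p = 0.00806), with no overlap. CTBP1, a corepressor, was at 123 ± 8.28 and 140 ± 3.72 CPM (SD, n = 3, adjusted p = 0.189), and CTBP2 at 167 ± 8.28 and 135 ± 13.8 (0.0841); without EV replicate 1 or 2 CTBP2 passed at -0.41 and -0.39 (0.0160 and 0.0126). Without PLASS replicates 1 and 2, 4 and 3 genes of the stem cell list fell, and without PLDLS replicates 4 in each case.

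Of 12 tested genes of mast cells, basophils and eosinophils 6 rose and none fell, with a median of 0.36 and 4 differences of 2.02 to 2.31. PRG2, the eosinophil major basic protein (chr11:57386780-57390650), stood at 19.4, 10.9 and 16.3 CPM in experiment 1 and at 75.9, 55.5 and 67.2 in experiment 2 (2.11 ± 0.13, SE, adjusted p = 0.000328 by edgeR). CLC, the Charcot-Leyden crystal protein, went from 20.2, 22.6 and 17.3 to 61.1, 95.3 and 90.3. EPX, eosinophil peroxidase, went from 6.33, 2.88 and 8.15 to 38.1, 20.7 and 26.1. RNASE2, an eosinophil ribonuclease, rose by 2.07 ± 0.24 at a low level, 0.628, 3.60 and 0.796 and then 3.46, 11.5 and 3.88. Only RNASE2 of these 4 overlapped between experiments. HDC, which makes histamine, and CSF2RB, the shared receptor subunit for IL3, IL5 and GM-CSF, rose by 0.99 and 0.47, named after their values were seen; CSF2RB was lost without any PLASS or PLDLS library (0.117 to 0.163). The mast cell tryptases TPSAB1 (0.11) and TPSB2 (-0.52) did not pass. Summed over the list, experiment 1 held 355 to 440 CPM and experiment 2 held 587 to 831, and most of both sums was CSF2RB, at 257, 294 and 302 and then 373, 487 and 336.

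Counts in the other lineage lists were small and are read against the 8.98% of all tested genes that rose and the 11.5% that fell. Of 8 tested genes of primary granules 4 rose: RNASE2, CFD, the complement factor D (1.03 ± 0.16), CLEC11A, a growth factor for progenitors (0.73 ± 0.13), and SRGN, a granule proteoglycan (0.64 ± 0.14). RNASE2 is also counted among the eosinophil genes above. MPO, BPI, NKG7 and CST7 did not pass (adjusted p = 0.0704 to 0.364 by edgeR). In the PLDLS pair MPO was at -0.03 and BPI at -0.02. ELANE, PRTN3 and AZU1 lay below the filter. Of 8 neutrophil maturation genes none rose and MMP9, MGAM and CXCR2 fell, MMP9 from 102, 68.1 and 110 CPM to 59.2, 50.8 and 42.2. MGAM was lost without any library of PLASS or PLDLS (adjusted p = 0.0695 to 0.114) and CXCR2 without any library of PLDLS or EV (0.0672 to 0.101). CXCR2 also did not pass with DESeq2 (0.0652) or with edgeR after thinning to equal depth (0.138). Of 19 monocyte genes 2 rose and 1 fell, close to or below those shares: S100A8 and S100A9, calcium-binding proteins of myeloid cells, rose by 1.14 ± 0.19 and 0.74 ± 0.15, and CD36, a scavenger receptor, fell by 0.86 ± 0.13, each overlapping between experiments because PLDLS was higher than the other constructs in both. Of 11 dendritic cell genes CD83 and IRF8 rose and CLEC9A and CD1C fell. CLEC9A, a receptor of cross-presenting cells, was at 12, 4.08 and 10.5 and then at 3.54, 2.93 and 4.71. IRF8, a factor of that lineage, was at 2.41, 0.480 and 1.62 and then at 4.26, 0.550 and 4.16, and was lost without PLASS replicate 1 (0.0561) or EV replicate 1 (0.160). CD1C was lost without any library of PLASS or PLDLS (0.104 to 0.261). With all 6 libraries IRF8 and CD1C also did not pass with DESeq2 (adjusted p = 0.189 and 0.0911). After thinning to equal depth they did not pass with edgeR either (0.216 and 0.108). Of 11 erythroid and megakaryocytic genes 3 fell, the factors FLI1 (-0.66 ± 0.10), GFI1B (-0.95 ± 0.19) and NFE2 (-1.18 ± 0.27). FLI1 did not overlap between experiments, at 153, 179 and 177 and then at 98.7, 102 and 122. Of the 7 T and natural killer genes 4 fell, the kinase LCK (-1.16 ± 0.18), KLRD1 (-0.66), NCR2 (-0.72) and CD4 (-0.40), which monocytes also express. Only 2 of the 4 fell without PLASS replicate 2, either PLDLS library or EV replicate 1. NCR2 also did not pass with limma-voom (adjusted p = 0.0584) or with edgeR after thinning (0.0836), nor CD4 with DESeq2 (0.0557). Of 4 tested B cell genes CD79A fell by 0.62, a call lost without any 1 of the 6 libraries (0.0742 to 0.208). None of 4 fibroblast and epithelial genes passed (edgeR).

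Genes of respiration and translation had small positive differences whose size varied between the construct pairs. Of 49 tested genes of oxidative phosphorylation 22 rose and none fell, and all 49 had a positive difference, with a median of 0.45. CYC1, cytochrome c1 of complex III, stood at 70.2, 63.2 and 64.0 CPM and then at 93.7, 113 and 109 (0.67 ± 0.12, SE, adjusted p = 0.00850 by edgeR). UQCRFS1, the iron-sulphur subunit of the same complex, rose by 0.57 ± 0.11, COX7C of complex IV by 0.75 ± 0.16 and ATP5MC1 of the ATP synthase by 0.70 ± 0.16. No library of experiment 2 lay below one of experiment 1 in these 4 genes. Of 63 ribosomal protein genes 10 rose and none fell, and all 63 were positive, with a median of 0.38. RPL38 went from 98.9, 106 and 98.7 to 131, 153 and 190, and RPLP2 from 123, 177 and 141 to 183, 256 and 193. RPLP2 was lost without a PLASS library (0.0681 and 0.0713), and RPS16 and RPS19 (0.45 and 0.43) without any library of PLASS or PLDLS (0.0551 to 0.153). The median of the ribosomal proteins was 0.08 in the PLASS pair, 0.28 in the PLDLS pair and 0.74 in the EV pair, and that of oxidative phosphorylation 0.28, 0.39 and 0.75. EV replicate 2 also had the largest share of reads on short transcripts, 4.72% against 3.11% to 3.99% in the other libraries. Without PLASS replicates 1 and 2, 31 and 28 ribosomal protein genes rose, and without PLDLS replicates 1 and 2, 2 in each case; for oxidative phosphorylation 7 and 8 rose without PLDLS replicates 1 and 2. Without the EV pair 7 ribosomal protein genes rose, with a median of 0.20, and with the GC and length offset 5 of 63, a smaller share than the 2013 of 11691 tested genes that rose with that offset. With the GC and length offset the medians were 0.16 for ribosomal proteins and 0.30 for oxidative phosphorylation. The part of these shares in the differences was not tested.

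MYC and the genes of ribosome assembly did not move together. MYC, the transcription factor that drives growth genes, stood at 192, 239 and 234 CPM in experiment 1 and at 124, 157 and 172 in experiment 2 (-0.56 ± 0.10, SE, adjusted p = 0.00944 by edgeR), without overlap, and was lost without PLASS replicate 2 (0.0761). Of the 38 tested genes of its list, MYC was the 1 that fell and 7 rose, with a median of 0.32. Over all tested genes 8.98% rose and 11.5% fell. FBL, a methyltransferase of ribosomal RNA, rose by 0.65 ± 0.14, NOP58, its partner, by 0.52 ± 0.13, and MRTO4, an assembly factor, by 0.58 ± 0.15. The EV library of experiment 2 was the highest in these 3 genes, and 5 and 3 members rose without PLASS replicates 1 and 2.

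Counts in this paragraph stand beside the 8.98% of all tested genes that rose and the 11.5% that fell. Of 31 tested glycolysis and hypoxia genes 7 rose and 1 fell, with a median of 0.24. DDIT4, an inhibitor of mTORC1 induced by many stresses, had the largest difference, from 107, 164 and 71.5 CPM to 575, 793 and 138 (1.89 ± 0.26, SE, adjusted p = 0.00356 by edgeR), and its EV library of experiment 2 lay within experiment 1. ADM, a hypoxia-induced peptide hormone, rose by 1.55 ± 0.22, PFKFB3, which stimulates glycolysis, by 0.75 ± 0.13, and NDRG1 by 0.58 ± 0.12, the last lost without a PLASS library (0.109). Without EV replicate 1 or 2, 14 members rose and 3 fell, and without PLASS replicates 4 rose. Of 19 genes of the oxidative stress factor NRF2 8 rose, among them SLC7A11, the cystine transporter (1.28 ± 0.20), TALDO1 of the pentose phosphate pathway (0.51 ± 0.10) and FTL, ferritin light chain (0.43 ± 0.11), and ABCC1 fell (-0.41). Except for SLC7A11 these were lost without 1 or more libraries: TALDO1 without PLASS replicate 2 (0.0529), and FTL and ABCC1 without any library of PLASS or PLDLS (0.0611 to 0.199). The number that rose was 12 without either EV library and 2 to 3 without any library of PLASS or PLDLS. Among 13 genes of amino acid transport and polyamine synthesis 6 rose, led by SLC38A2, a transporter of neutral amino acids, from 406, 560 and 324 to 814, 727 and 598; SLC1A5, SLC7A5 and SLC38A1 (0.63, 0.57 and 0.51) were lost without 1 or more libraries (0.0531 to 0.190), and 2 members rose without a PLASS library, against 4 without a PLDLS library. Of 12 serine and one-carbon genes 3 rose, MTHFD2, SLC1A5 and MTHFD1 (0.51), with 1 left without any library of PLASS or PLDLS and 5 without either EV library; MTHFD1 was among those lost (0.0854 to 0.135).

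Signalling lists were mixed, and their counts are read against the 8.98% of all tested genes that rose and the 11.5% that fell. Of 23 tested genes of the TGF-beta and BMP pathways 6 rose and 1 fell. The feedback inhibitor SMAD7 went from 33.6, 46.4 and 15.5 CPM to 96.9, 111 and 42.5 (1.42 ± 0.11, SE, adjusted p = 0.000768 by edgeR), and SKIL, a repressor of SMAD factors, from 112, 103 and 76.7 to 227, 180 and 146. The receptor BMPR2 stood at 199, 199 and 166 and then at 114, 111 and 117. SKIL and BMPR2 did not overlap, while SMAD7 did through its low EV libraries. ID2, an inhibitor of differentiation factors named after its values were seen, rose by 0.73. Without EV replicate 2, 9 members of the list rose. Of 24 cytokine receptor and feedback genes 3 rose and 3 fell, near those shares. SOCS3, an inhibitor of STAT3 signalling, rose by 1.18 ± 0.22 and IL1RAP, a coreceptor for IL1, by 0.65 ± 0.11, and IL7R fell by 0.84 ± 0.17. The counts were 6 and 5 without either EV library, and 1 fell without a PLASS library.

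Of 27 tested p53 targets 3 rose and 5 fell, beside 8.98% and 11.5% of all tested genes. GADD45B, a stress gene that is also an NF-kB target, went from 6.71, 5.88 and 5.20 CPM to 29, 18.5 and 25.3 (2.04 ± 0.17, SE, adjusted p = 0.000768 by edgeR), and BTG2 and SESN2 were the others that rose. POLH, a translesion polymerase, stood at 103, 86.9 and 99.7 and then at 59.0, 55.2 and 53, and TP53INP1, a cofactor in cell death, fell by 0.90 ± 0.15. Without the EV libraries 6 members rose and 6 fell, and without a PLASS or PLDLS library 2 fell. Of 27 apoptosis regulators PMAIP1, which antagonises MCL1, rose by 1.51 ± 0.14, BCL2A1, a survival gene under NF-kB, by 1.03 ± 0.22, and MCL1 by 0.66 ± 0.13, while APAF1, the caspase adaptor, fell by 0.58 ± 0.11; BIRC3 was the 4th that rose. MCL1 was lost without a PLASS library (0.0686 and 0.0756). Without either EV library 4 of these genes fell.

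Counts of the interferon, MHC, adhesion and lysosome lists were small and stand beside the 8.98% of all tested genes that rose and the 11.5% that fell. Of 35 interferon-stimulated genes 6 rose and 2 fell, with a median of 0.08. GBP2, a guanylate-binding protein, went from 2.95, 2.64 and 2.04 CPM to 5.87, 4.21 and 4.88 (1.01 ± 0.21, SE, adjusted p = 0.0155 by edgeR), and IFI6 rose by 0.87 ± 0.17. CMPK2, a mitochondrial nucleotide kinase, went from 61.2, 91.5 and 60.5 to 30.5, 54.2 and 34.4, and STAT2, a subunit of the interferon transcription factor, fell by 0.71 ± 0.15. Without a PLASS library 2 members rose, and without a PLDLS library 3. Of 16 interferon receptor and IRF genes IRF8 rose and STAT2, IRF2 and IRF5 fell, IRF2 by 0.54 and IRF5 by 0.55; IRF2 was lost without any library of PLASS or PLDLS (0.0658 to 0.111), and IRF5 without PLASS replicate 1, PLASS replicate 2 or PLDLS replicate 2 (0.0962, 0.129 and 0.0510). Without a PLASS library 1 of these genes fell. IRF2 also did not pass after thinning to equal depth (adjusted p = 0.0537 by edgeR). Of 13 MHC class I genes 3 rose and 1 fell. HLA-B and HLA-C rose by 0.49 and 0.41 and the peptidase ERAP1 fell (-0.36), and none of these named genes passed without a PLDLS library (0.0740 to 0.133). HLA-C and ERAP1 were also lost without a PLASS library (0.0847 to 0.285), and HLA-B without EV replicate 1 (0.0504). Reads may be split among these related HLA genes. Among 13 MHC class II genes none rose, and the transactivator CIITA fell by 0.58 ± 0.17 (0.0465), a call lost without PLDLS replicate 2 (0.0632) or EV replicate 1 or 2 (0.0718 and 0.0811). CIITA was also lost after thinning to equal depth (adjusted p = 0.0908 by edgeR). Of 23 integrin and adhesion genes ICAM1 rose and ITGAX (-1.04) and ITGAL (-0.71), chains of leukocyte integrins, fell, and without either EV library 4 rose and 3 fell. Of 28 lysosome genes GLA, an alpha-galactosidase, rose from 16.6 ± 0.505 to 26.9 ± 0.177 CPM (SD, n = 3) and LIPA, the acid lipase, fell by 0.42, which was lost without any library of PLASS or PLDLS (0.142 to 0.193); without EV replicates 1 and 2, 7 and 9 members rose.

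**Figure D4:**
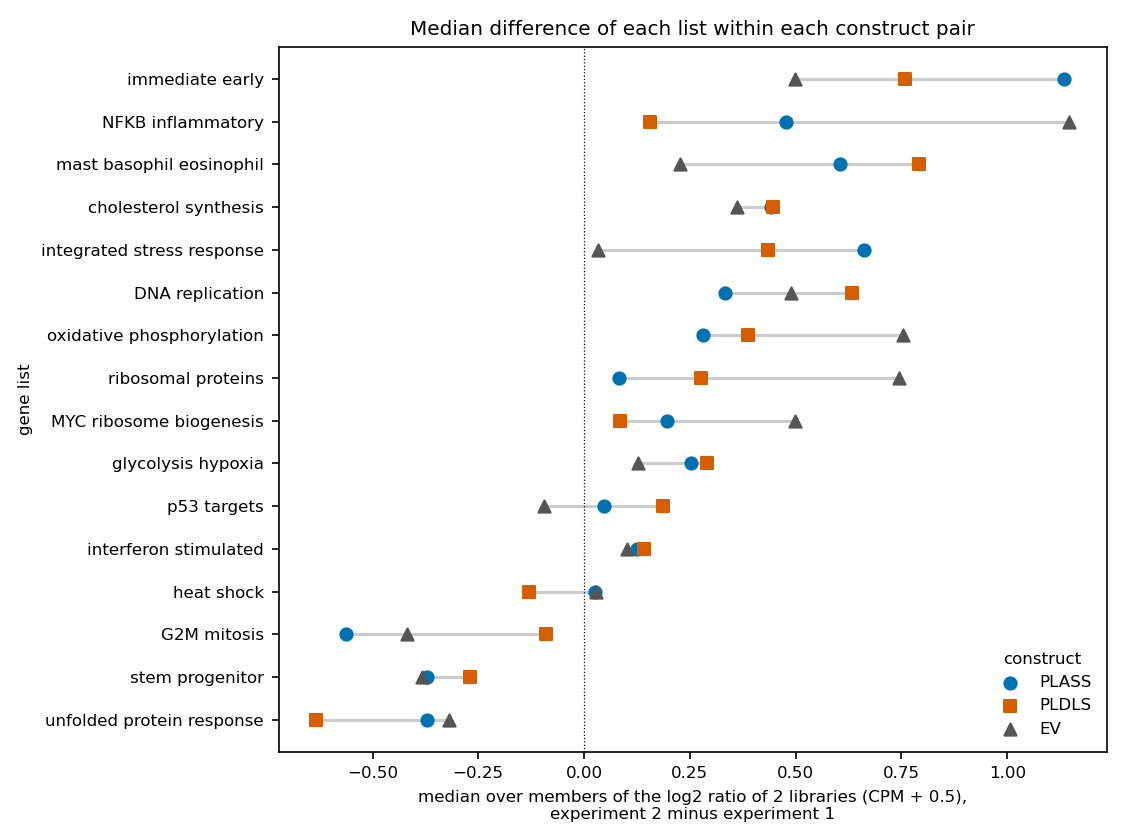
Each row is a gene list, and the 3 symbols are the medians over its members of the log2 ratio between the 2 libraries of a construct, experiment 2 minus experiment 1. The EV pair stands apart for NF-kB (1.15), ribosomal proteins (0.74) and the integrated stress response (0.03), and the 3 pairs lie close together for cholesterol synthesis.

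Non-coding genes were lower in experiment 2 far more often than higher. Of 615 tested long non-coding RNAs 137 fell (22.3%) and 9 rose (1.46%), and of 287 pseudogenes 82 fell (28.6%) and 4 rose (1.39%), against 1165 (10.5%) and 1070 (9.61%) of 11129 protein-coding genes. After thinning to equal depth 88 of 594 long non-coding RNAs fell (14.8%) and 11 rose, and with the offset for GC content and length 144 of 463 fell and 8 rose. At a mean over 50 CPM, 16 of 30 fell (53.3%) and none rose, against 8.54% of protein-coding genes at that level (edgeR). MALAT1, a nuclear RNA of speckles, stood at 520, 417 and 392 CPM in experiment 1 and at 277, 257 and 246 in experiment 2 (-0.76 ± 0.11, SE, adjusted p = 0.00427). NEAT1, the scaffold of nuclear paraspeckles, went from 614, 562 and 550 to 377, 330 and 189. FAM30A, a transcript of progenitor and leukaemic cells, went from 1090, 985 and 1256 to 647, 668 and 667. These 3, OIP5-AS1 (-0.68) and LOC100190986 (-1.0), all named after their values were seen, did not overlap between the experiments. Reads of pseudogenes may be shared with their parent genes.

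Transcript length moved with the direction of change. Genes were put in 5 equal groups by length. Among those with the shortest transcripts (median 1317 bases) 14.1% rose and 4.18% fell, and among those with the longest (6913 bases) 7.28% rose and 18.6% fell. Genes that rose had a median length of 2551 bases and those that fell 4119, against 3158 over all. Read-weighted mean transcript length was 4719, 4782 and 4777 bases in experiment 1 and 4617, 4564 and 4406 in experiment 2, lower in experiment 2 in each pair. GC content showed less of this: 7.27% rose and 9.53% fell in the lowest of 5 groups, and 10.1% and 13% in the highest. The part of transcript length in the other results was not tested.

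**Figure D5:**
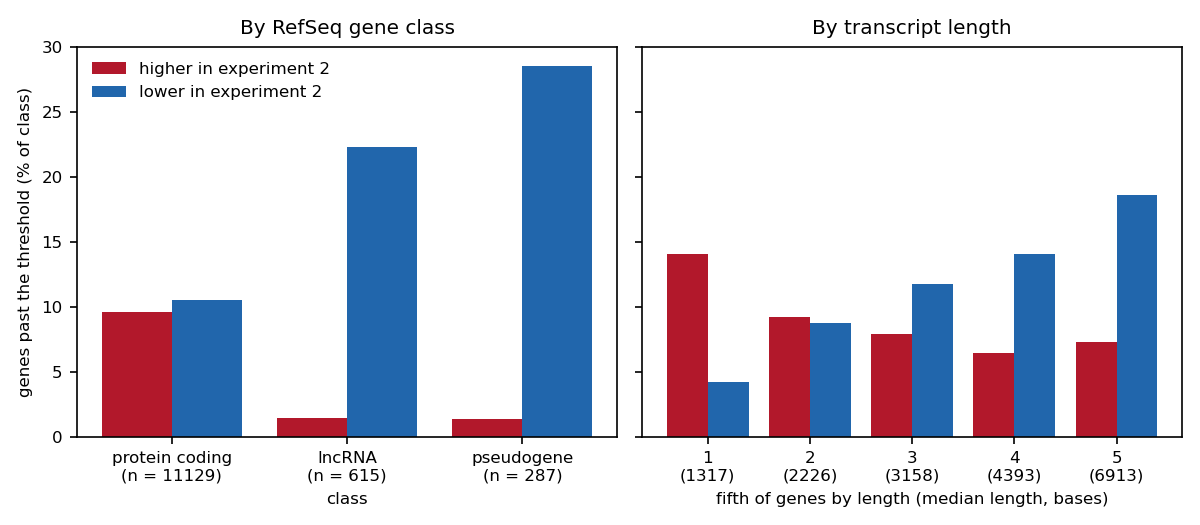
Bars give the percentage of tested genes past the threshold, higher and lower in experiment 2, by RefSeq class on the left and by transcript length in 5 equal groups on the right. The share that fell is 22.3% for long non-coding RNAs and 28.6% for pseudogenes, and climbs from 4.18% to 18.6% with length.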

How the data were processed

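RNA of 6 MUTZ3 libraries was selected for polyA and sequenced without strand, per the labels. The authors quantified transcripts with Salmon against hg38, per the submitters' processing notes, and deposited per transcript an estimated count of reads, a TPM value and an effective length. The estimated counts of RefSeq transcripts were summed per gene symbol (99.4% of 69004 transcripts named) and rounded; deposited TPM values served only as a check of the tables, and no columns of other samples were present (0). Rows without a gene name held 0.0670 to 0.0891% of the reads of a library and were left out.

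Genes with a mean of at least 2 CPM were tested with edgeR 4.0.16 in R 4.3.3 (TMM scaling, quasi-likelihood test, Benjamini-Hochberg adjusted p under 0.05), with construct group as a block and experiment as the effect, which leaves 2 residual degrees of freedom. SE is the absolute log2 difference divided by the square root of F. Within-pair values are differences of log2(CPM + 0.5). The block was used because the 3 libraries of an experiment share construct groups with those of the other, though the vectors of the EV group differ. In the model without this construct block 1554 genes passed in place of 2472. Scripts were tested on simulated data. The precision is limited by 3 libraries per experiment and by the depth of the shallowest.

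Named genes were the 15 largest increases and decreases among called genes with the same sign in every pair, up to 4 genes per list by adjusted p, and MECOM, CTBP1, CTBP2 and GATA2. Genes outside this rule were chosen after their values were seen, and some genes the rule names are not reported here. The members and gene lists were chosen with earlier results of these data known. Alternatives used DESeq2 1.42.0, limma-voom (limma 3.58.1), other scalings, filters and offsets, libraries thinned to 5578302 reads, and leaving out each library. Tables were read with pandas 2.3.3 in Python 3.11.15. Promoters came from RefSeq (GRCh38.p14).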

Additional observations from a re-analysis of the deposited data

Results flagged for a closer look

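In 13 genes, the 10 of the 2472 past the threshold whose pairs did not share a sign and 3 more that are named by rule, 1 construct pair differed from the others in sign or was the only 1 not at 0. Genes that are neither past the threshold nor named were not looked at here. Each pair holds 1 library per experiment, so none of these differences was tested. RNA28SN3, a copy of the 28S ribosomal RNA gene with near-identical neighbours, had reads only in PLDLS of experiment 2, a within-pair log2 difference of 5.73 against 0 in the other pairs. TNFSF18, a ligand of the TNF family, was at -0.24 in PLDLS and at 2.98 in PLASS and 2.92 in EV. NFKBIZ, an NF-kB regulator, was at -0.14 in PLDLS and at 1.05 in PLASS and 2.10 in EV.

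Of genes that answer amino acid and other stress, 3 were near 0 in EV and higher in both peptide pairs: ADM2 (-0.078 in EV, 1.90 in PLASS, 1.97 in PLDLS), SESN2 (-0.039, 1.35 and 1.36) and STC2 (-0.12, 2.50 and 1.90). MAP1A, a microtubule protein, was at -0.016 in EV, 1.14 in PLASS and 1.57 in PLDLS, and ABCA1 at -0.10, 0.68 and 0.59. The non-coding gene LINC01451 was at 0.088 in PLDLS, -1.21 in PLASS and -1.77 in EV, and TICRR, a replication factor, at 0.018, -0.98 and -0.88. RPS29, a ribosomal protein gene, was at -0.0063 in PLASS, 0.87 in PLDLS and 0.98 in EV. The keratin gene KRT18 was at 0.014 in PLASS, -0.29 in PLDLS and -1.27 in EV, and KRT8 at 0.29 in PLDLS, -0.05 in PLASS and -0.56 in EV, both at low levels and not past the threshold.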

How the results depend on the processing

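The number of genes past the threshold fell from 2472 to 1554 without construct as a block (639 higher, 915 lower), and ranged from 1335 to 3169 when 1 library was left out (573 to 1608 higher, 683 to 1561 lower); leaving out a library also removes its partner from the contrast, and the lone library is assumed to vary like the others. With an offset for GC content and length, chosen after seeing the data, 2013 genes were higher. Leaving out 1 library gave medians of 0.43 to 0.49 for cholesterol synthesis, -0.47 to -0.30 for stem cell genes, 0.36 to 0.67 for mast cell, basophil and eosinophil genes and 0.30 to 0.37 for amino acid transport and polyamine genes. Cholesterol synthesis had a median of 0.43 with the effective length offset and 0.39 with the GC and length offset. Without the EV pair the medians were -0.32 for stem cell, 0.66 for mast cell and 0.31 for amino acid transport genes, and with a minimum of 10 CPM that of mast cell genes was 0.73. Amino acid transport genes were at 0.38 with DESeq2 size factors, 0.30 with upper-quartile scaling, 0.31 with the effective length offset and 0.27 with the GC and length offset. Among 3109 values of named genes under the alternatives 2837 kept direction and side of the threshold, 250 lost it and 19 gained it. KRT8, not past the threshold, changed sign in the other 3, to 0.094 without the EV pair, and ranged from -0.35 to 0.11 when 1 library was left out. Where no cause is given, the cause was not tested. The shallowest library, with 5582078 reads, limits what can be seen in genes of low level.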
